A study of Mus musculus with 12 samples.

Results

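Endothelial marker genes were followed in cultures of mouse vascular smooth muscle cells, as 40 genes chosen by their symbols from the 55487 genes of the deposited table. The choice named them as endothelial identity genes that are present in these cultures and higher in cells labelled KO, so the comparison of KO with WT describes the set and is not independent evidence of its direction. All 40 were found in the table. The cells were primary cultures from mice of 4 to 6 weeks of age, used between passages 4 and 6 and kept in medium with fetal bovine serum; the vessel is named only as vascular. There were 4 groups of 3 libraries each: cells labelled TIGAR KO with PDGF-BB, cells labelled TIGAR KO untreated, WT cells with PDGF-BB and WT cells untreated. PDGF-BB was given at 40 µg/L for 6 h. TIGAR is a fructose bisphosphatase that restrains glycolysis, and PDGF-BB is a growth factor that drives smooth muscle cells to divide and migrate. The labels give no allele, strain or deleted exon for the knockout, and leave unsaid whether replicate libraries came from different animals or cultures. The p-values therefore rest on the spread between these libraries, which may be technical.

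Endothelial cells line every blood vessel, lie directly against smooth muscle in the vessel wall, and can be carried into a culture when the wall is digested. They are recognised by a shared set of genes: junction proteins that seal the lining, receptors for VEGF and the angiopoietins, the ETS and SOX family transcription factors that switch these genes on, and secreted proteins such as von Willebrand factor. In RNA from a whole culture, more cells of a type and more of that type's RNA per cell cannot be told apart.

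Library totals ran from 14953807 to 21698488 reads, and 1 read was worth 0.0669 CPM, the authors' unit of reads scaled to a common library total, at the lowest depth. Expression of Tigar was not reduced in labelled KO cells: it lay between 14.6 and 16.2 CPM in labelled KO cells with PDGF-BB against 11.5 to 12.6 CPM in WT cells with PDGF-BB, and between 10.0 and 12.2 CPM in labelled KO untreated cells against 6.91 to 8.61 CPM in WT untreated cells. Counts over the whole gene do not show whether a deleted part was read, so each direction given for KO is that of the libraries labelled KO. Replicate 1 of WT with PDGF-BB stood apart, at a root mean square distance of 0.416 on the log2 scale from the other libraries of its group, where the other 11 libraries lay between 0.143 and 0.293. In that group a library's differences from the other libraries also followed exon length across genes, at a Spearman correlation of -0.577 for replicate 1, 0.431 for replicate 2 and 0.526 for replicate 3, where the labelled KO libraries lay between -0.0884 and 0.096 and the WT untreated libraries between -0.254 and 0.169. The part of this in the results with WT PDGF-BB libraries was not tested. Separate counts without replicate 1 are given only for genes higher in labelled KO with PDGF-BB and for genes that fell with PDGF-BB. Fold classes, counts of libraries without overlap and the other gene lists are given with all libraries. Of the markers of the labelled cell type, Acta2 averaged 1298 to 2578 CPM over the 4 groups, Myh11 averaged 35.9 to 79 CPM and Tagln 3.41 to 6.93 CPM, while Pln was at 0 in all libraries. These are 4 of 18 smooth muscle markers, whose summed level averaged 3548 to 6061 CPM over the groups.

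Most of the endothelial genes were several times higher in the labelled KO cultures than in WT cultures, with and without PDGF-BB, and PDGF-BB itself changed fewer of them. Summed over the 40 genes, the level was 1655 ± 12.7 CPM in labelled KO cells with PDGF-BB, 1807 ± 114 CPM in labelled KO untreated cells, 419 ± 24 CPM in WT cells with PDGF-BB and 462 ± 7.66 CPM in WT untreated cells (SD, n = 3 each). The lowest labelled KO library, at 1640.3 CPM, lay above the highest WT library, at 469 CPM. Eng alone made up much of the WT sum: without it the means were 1489 CPM in labelled KO with PDGF-BB and 1637 CPM in labelled KO untreated, against 276 CPM in WT with PDGF-BB and 309 CPM in WT untreated.

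**Figure D1:**
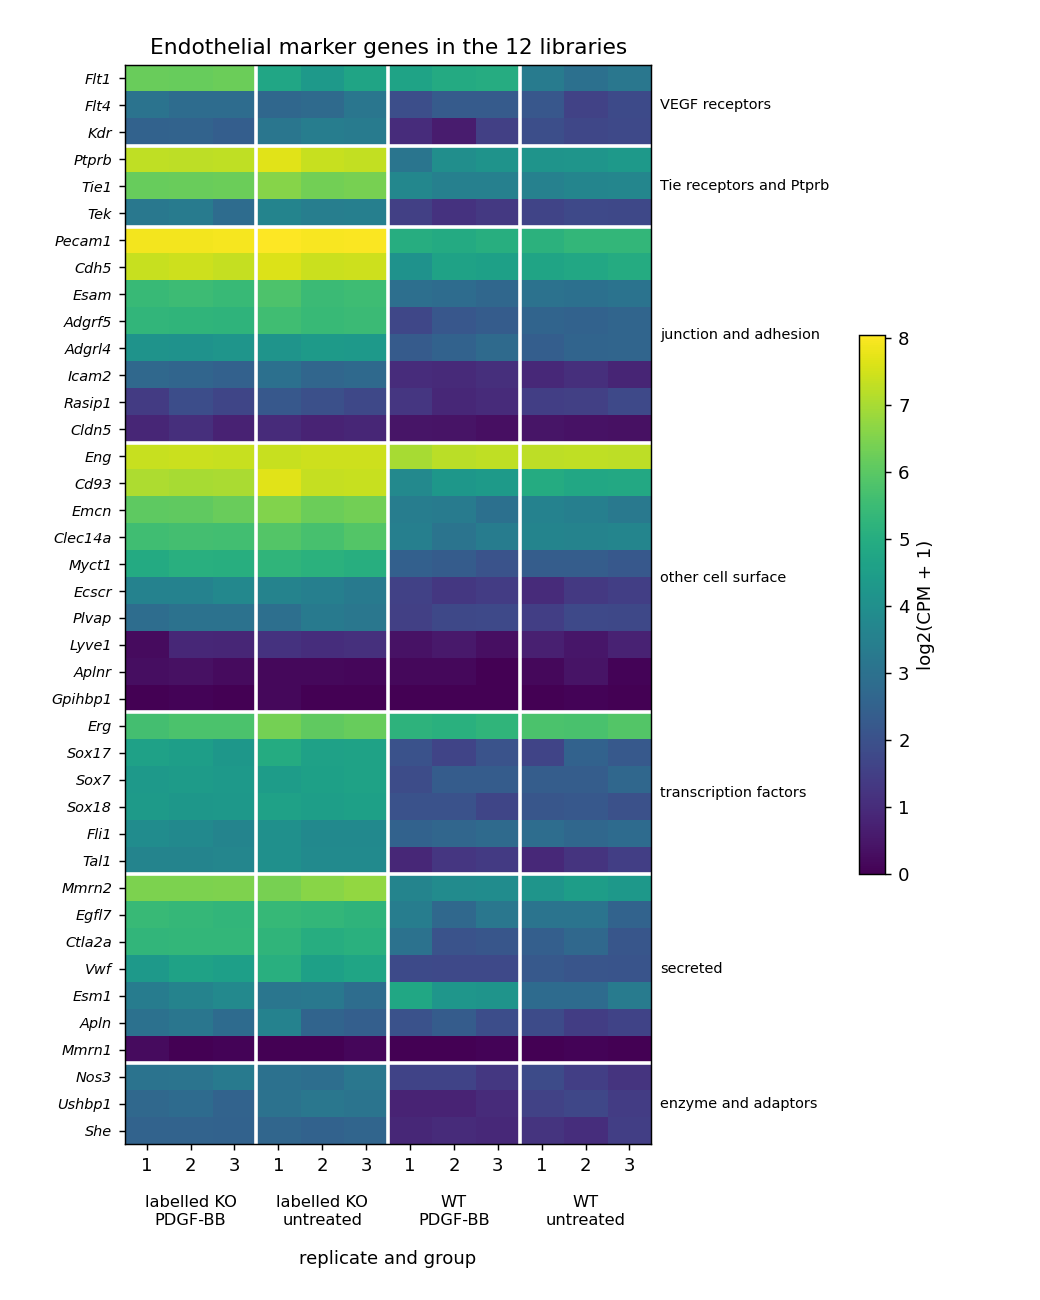
Level of each endothelial gene in each of the 12 libraries, coloured by log2(CPM + 1), with genes in rows by role and libraries in columns by group. Most rows are brighter across all 6 labelled KO libraries than across the 6 WT libraries, whereas Eng and Erg are bright in both and the 4 genes under the filter are dark throughout.

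A gene was tested where it had at least 1 CPM in at least 3 of the 12 libraries, which 36 of the 40 genes and 14202 genes in all did. Of those 36, 35 met that minimum in at least 3 WT libraries, so they did not depend on the labelled KO libraries to be tested, and the exception was Lyve1. Changes are differences of log2(CPM + 1) from limma-trend, called at a Benjamini-Hochberg adjusted p under 0.05 over all 14202 genes. In untreated cells 32 of 36 genes were higher in labelled KO than in WT, where 9.15% of all genes tested were higher, and 0 were lower, where 24.8% of all genes were. No gene was lower at an unadjusted p under 0.05 either, and edgeR gave 33 higher and 0 lower, where it called 13.7% of all genes higher and 14% lower. DESeq2 also gave 33 and 0, where 15.1% and 13.7% of all genes were called. With PDGF-BB 34 of 36 were higher, against 10.6% of all genes, and 1 was lower, against 26.6%. Without replicate 1 of WT with PDGF-BB 34 were higher, against 11.9% of all genes. The median change over the 36 was 2.13 in untreated cells, where the median over all genes was -0.13, and 2.18 with PDGF-BB, where it was -0.14. Scaling libraries by TMM, which sets the median gene near 0, moved the all-gene median of the untreated comparison to -0.01 and left 34 genes higher and 0 lower, with 13.6% of all genes then higher and 14.3% lower.

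The 3 labelled KO libraries lay wholly above the 3 WT libraries for 34 of 36 genes in untreated cells, as they did for 14.1% of all genes, and wholly below for 0, against 40.5%. With PDGF-BB they lay above for 34 of 36, against 13.6%, and below for 1, Esm1, against 35.9%. As a ratio of mean CPM, labelled KO over WT was at least 4-fold for 21 genes, 2-fold to 4-fold for 10 and under 2-fold for 5 in untreated cells, with a median of 4.94. With PDGF-BB it was at least 4-fold for 25 genes, 2-fold to 4-fold for 6 and under 2-fold for 5, with a median of 5.35. The 5 genes under 2-fold in untreated cells were Eng, Erg, Lyve1, Rasip1 and Esm1. The order of the genes was alike under both treatments, with a Spearman rank correlation of 0.96 over the 36 genes between the comparisons, which share no library; genes are not independent replicates, and this is a description.

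**Figure D2:**
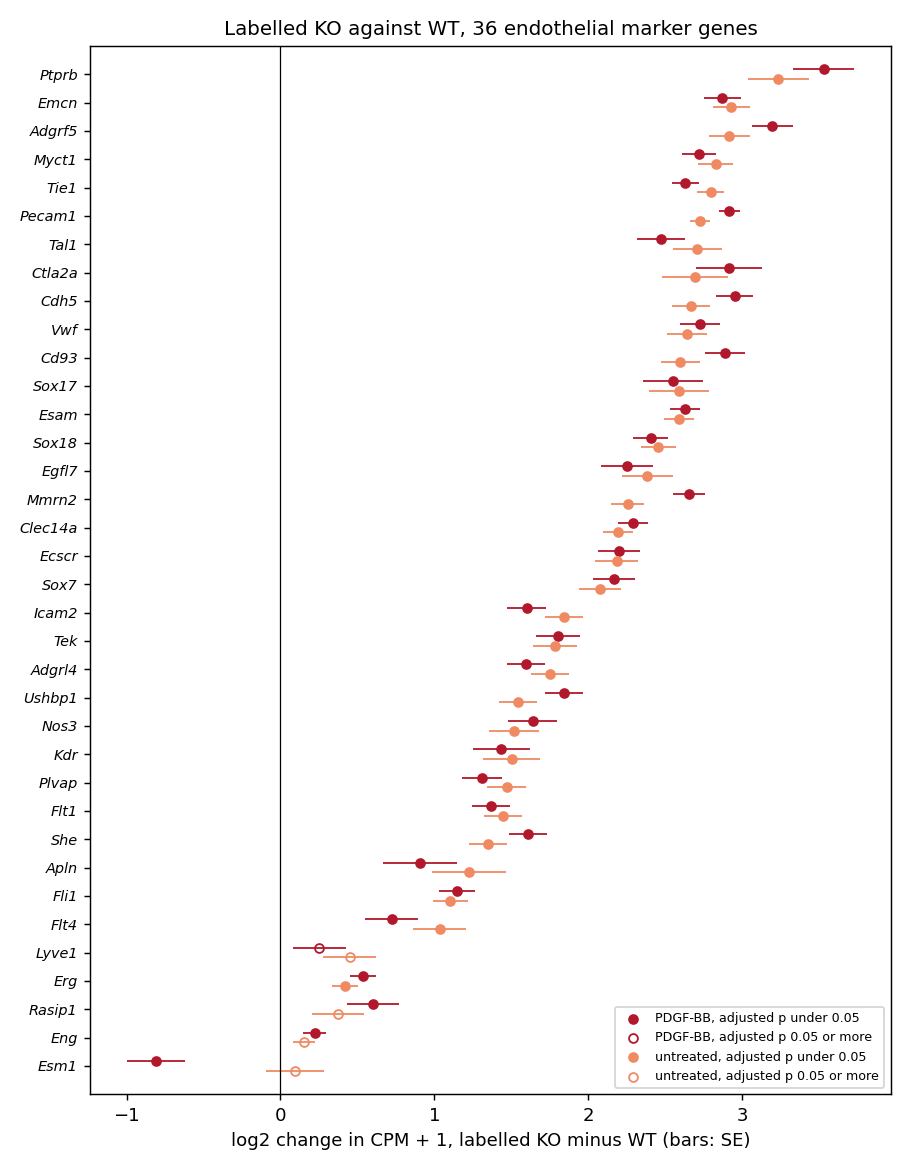
Change between labelled KO and WT, as log2(CPM + 1), for each of the 36 tested genes with its standard error, with PDGF-BB and without, filled where the adjusted p is under 0.05. Most genes lie between 1 and 4 under both treatments, Eng, Erg, Rasip1 and Lyve1 lie closer to 0, and Esm1 is below 0 with PDGF-BB.

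The genes that hold the endothelial lining together differed clearly between labelled KO and WT. With PDGF-BB, Pecam1 had 237, 238 and 244 CPM in labelled KO cells, against 31.6, 29 and 32.1 CPM in WT cells. Without it, Pecam1 had 264, 248 and 256 CPM in labelled KO cells, against 34.9, 39.5 and 39 CPM in WT cells. The labelled KO libraries lay far above the WT libraries, and the change in Pecam1, an adhesion molecule at endothelial contacts, was 2.92 ± 0.07 (SE) with PDGF-BB (adjusted p = 6.66e-12) and 2.73 ± 0.07 (SE) untreated (adjusted p = 1.62e-11), both by limma-trend. Cdh5 stood at 165, 173 and 159.7 CPM in labelled KO cells with PDGF-BB and at 16, 23.7 and 22.7 CPM in WT cells with PDGF-BB. Untreated, Cdh5 stood at 195, 167 and 173 CPM in labelled KO cells and at 24.8, 27.1 and 29.8 CPM in WT cells. Cdh5 encodes VE-cadherin, the adhesion protein of endothelial adherens junctions, and its groups did not overlap under either treatment, with changes of 2.95 ± 0.12 (SE) with PDGF-BB and 2.67 ± 0.12 (SE) untreated. With PDGF-BB, Esam had 41.5, 44.6 and 42.3 CPM in labelled KO cells, against 6.74, 6.11 and 5.46 CPM in WT cells. Without it, Esam had 54.4, 43.7 and 46.1 CPM in labelled KO cells, against 7.12, 6.92 and 7.33 CPM in WT cells. Esam, an immunoglobulin-type adhesion molecule at endothelial tight junctions, changed by 2.63 ± 0.10 (SE) with PDGF-BB and 2.59 ± 0.10 (SE) untreated.

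The other junction and adhesion genes followed with lower levels. Icam2 stood at 5.58, 5.16 and 4.69 CPM in labelled KO cells with PDGF-BB and at 1.03, 0.931 and 1.1 CPM in WT cells with PDGF-BB. Untreated, Icam2 stood at 6.81, 5.28 and 5.67 CPM in labelled KO cells and at 0.882, 1.12 and 0.774 CPM in WT cells. Icam2 is a ligand of leukocyte integrins on resting endothelium, and every labelled KO library exceeded every WT library. With PDGF-BB, Adgrf5 had 38.3, 37.4 and 37 CPM in labelled KO cells, against 2.25, 3.52 and 4.05 CPM in WT cells. Without it, Adgrf5 had 47.4, 42.1 and 43.6 CPM in labelled KO cells, against 5.04, 4.84 and 5.12 CPM in WT cells. The labelled KO libraries of Adgrf5 all exceeded its WT libraries. For Adgrl4 the libraries with PDGF-BB gave 16.5, 16.1 and 17.2 CPM in labelled KO cells and 4.01, 4.72 and 5.89 CPM in WT cells. The untreated Adgrl4 libraries gave 16.9, 19.9 and 18.9 CPM in labelled KO cells and 4.29, 4.99 and 5.18 CPM in WT cells. Both are adhesion G protein-coupled receptors enriched in endothelium; for Adgrl4 too labelled KO was above WT in every library under both treatments, and the ratio of means was larger for Adgrf5, at 11.5 with PDGF-BB and 8.87 untreated, than for Adgrl4, at 3.41 and 3.86. Rasip1 stood at 1.61, 2.72 and 2.19 CPM in labelled KO cells with PDGF-BB and at 1.4, 0.864 and 0.981 CPM in WT cells with PDGF-BB. Untreated, Rasip1 stood at 3.66, 2.94 and 2.34 CPM in labelled KO cells and at 1.83, 1.88 and 2.44 CPM in WT cells. Rasip1, an effector of Ras family GTPases needed for vessel lumens, was higher with PDGF-BB, by 0.60 ± 0.17 (SE) (adjusted p = 0.0142), without overlap of the libraries. Untreated, the libraries overlapped and it did not pass the test, at 0.38 ± 0.17 (SE) (adjusted p = 0.106, limma-trend). Of its annotated exonic bases, 20.4% lie under exons of Izumo1 on the same strand and 22.5% under genes of the other strand, so its counts are uncertain. The call with PDGF-BB was lost without replicate 2 of labelled KO with PDGF-BB, at 0.48 (adjusted p = 0.0703). Cldn5, the claudin of endothelial tight junctions, stayed under the filter, with 93 reads over the 6 labelled KO libraries and 32 over the 6 WT libraries.

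Receptors of the angiopoietin system were higher in labelled KO as well. With PDGF-BB, Tie1 had 71.1, 72.4 and 75.1 CPM in labelled KO cells, against 12.1, 10.4 and 10.3 CPM in WT cells. Without it, Tie1 had 94.5, 78.9 and 83 CPM in labelled KO cells, against 10.7, 11.6 and 12 CPM in WT cells. Tie1 is a partner receptor of Tek, and its labelled KO libraries all lay above its WT libraries. Tek stood at 8.43, 9.29 and 6.25 CPM in labelled KO cells with PDGF-BB and at 1.88, 1.26 and 1.53 CPM in WT cells with PDGF-BB. Untreated, Tek stood at 11.5, 9.76 and 10.1 CPM in labelled KO cells and at 2.14, 2.44 and 2.38 CPM in WT cells. Tek is the receptor for the angiopoietins, and here too the labelled KO libraries lay above the WT libraries without overlap. The changes in Tie1 were 2.63 ± 0.09 (SE) with PDGF-BB and 2.80 ± 0.09 (SE) untreated, and those in Tek were 1.80 ± 0.14 (SE) and 1.78 ± 0.14 (SE). For Ptprb the libraries with PDGF-BB gave 154, 152 and 155 CPM in labelled KO cells and 7.65, 14.7 and 16.7 CPM in WT cells. The untreated Ptprb libraries gave 206, 167 and 156 CPM in labelled KO cells and 16.8, 17.3 and 18.9 CPM in WT cells. Ptprb is the phosphatase VE-PTP that acts on Tek and VE-cadherin. With all libraries it had the largest log2 change of the 36 genes under both treatments. The change was 3.53 ± 0.20 (SE) with PDGF-BB (adjusted p = 2.74e-08) and 3.24 ± 0.20 (SE) untreated (adjusted p = 7.18e-08) by limma-trend. In mean CPM, Ptprb had 11.8 and 9.96 times the WT level. Without replicate 1 of WT with PDGF-BB, the largest change with PDGF-BB was 3.23, in Ctla2a and not in Ptprb.

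The VEGF receptors differed less. With PDGF-BB, Kdr had 4.75, 4.91 and 4.25 CPM in labelled KO cells, against 1.03, 0.532 and 1.9 CPM in WT cells. Without it, Kdr had 7.98, 9.7 and 9.29 CPM in labelled KO cells, against 2.84, 2.29 and 2.44 CPM in WT cells. Kdr, the main signalling receptor for VEGF-A, was higher in every labelled KO library than in any WT library of the same treatment, by 1.43 ± 0.19 (SE) with PDGF-BB and 1.5 ± 0.19 (SE) untreated. Flt1 stood at 73.5, 72 and 75.3 CPM in labelled KO cells with PDGF-BB and at 24.3, 29.2 and 30.6 CPM in WT cells with PDGF-BB. Untreated, Flt1 stood at 26, 19.6 and 25 CPM in labelled KO cells and at 9.07, 6.82 and 8.04 CPM in WT cells. Flt1 binds VEGF-A tightly and acts largely as a decoy; its labelled KO libraries lay above the WT libraries at each treatment, with changes of 1.37 ± 0.12 (SE) with PDGF-BB and 1.45 ± 0.12 (SE) untreated. For Flt4 the libraries with PDGF-BB gave 7.28, 6.23 and 6.12 CPM in labelled KO cells and 2.85, 3.92 and 3.98 CPM in WT cells. The untreated Flt4 libraries gave 5.5, 5.95 and 8.01 CPM in labelled KO cells and 3.53, 1.99 and 2.5 CPM in WT cells. Flt4, the receptor for VEGF-C and VEGF-D, gave the smallest change of the receptors, at 0.72 ± 0.17 (SE) with PDGF-BB (adjusted p = 0.00568) and 1.03 ± 0.17 (SE) untreated (adjusted p = 0.000448, limma-trend).

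**Figure D3:**
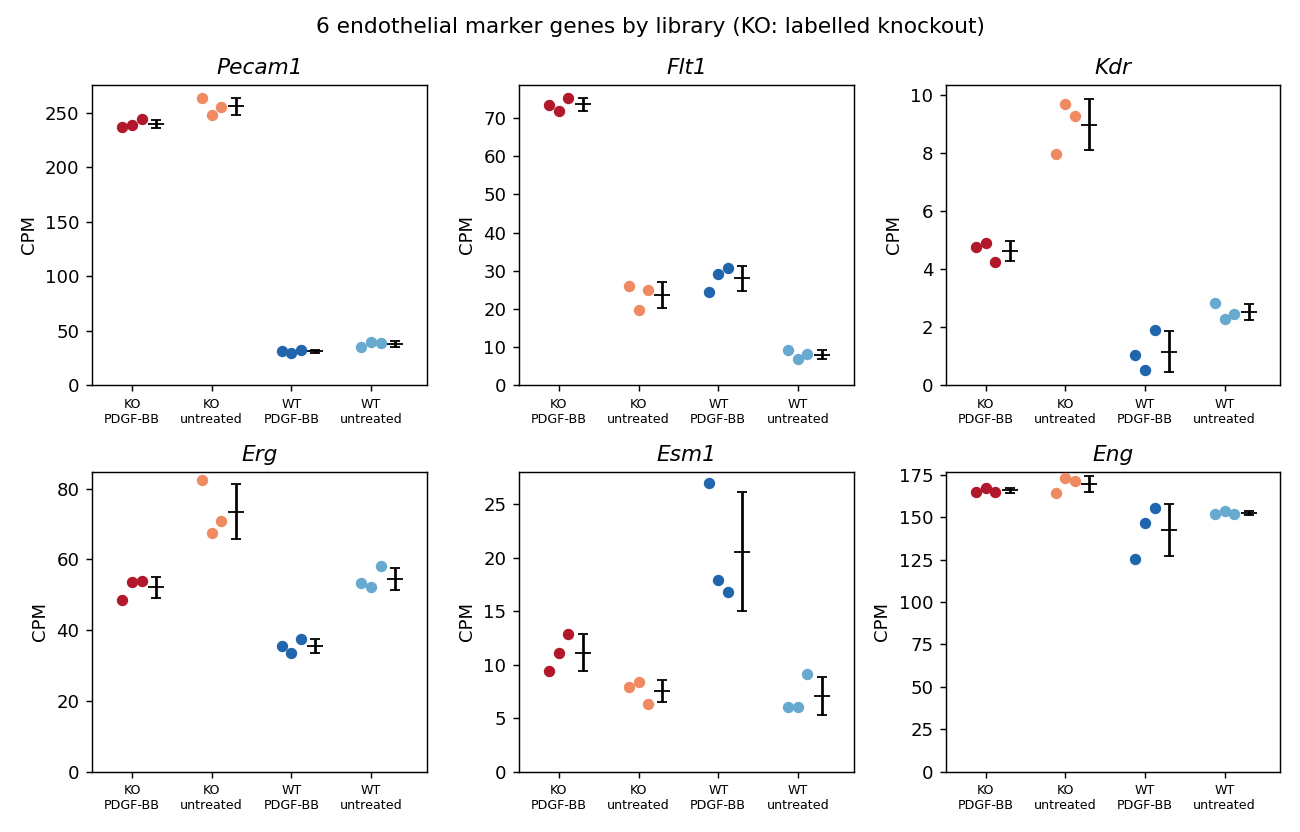
CPM in every library for selected endothelial genes, with 1 point per library and, beside each group, its mean with bars of 1 SD, on axes that start at 0. Pecam1 and Kdr separate labelled KO from WT under each treatment, Flt1, Kdr and Erg are separated by treatment as well, Eng is nearly level, and Esm1 is lower in labelled KO with PDGF-BB.

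All 6 transcription factors were higher in labelled KO under both treatments, but by unequal amounts. With PDGF-BB, Erg had 48.6, 53.6 and 54 CPM in labelled KO cells, against 35.5, 33.6 and 37.5 CPM in WT cells. Without it, Erg had 82.3, 67.3 and 70.7 CPM in labelled KO cells, against 53.4, 52.1 and 58 CPM in WT cells. Erg is an ETS family factor that keeps endothelial genes active, and its groups lay close together without overlap. Fli1 stood at 14.1, 13.2 and 11.4 CPM in labelled KO cells with PDGF-BB and at 4.74, 5.25 and 5.82 CPM in WT cells with PDGF-BB. Untreated, Fli1 stood at 15.5, 13.2 and 13.2 CPM in labelled KO cells and at 6.3, 5.45 and 6.08 CPM in WT cells. Fli1, a related ETS factor, separated more clearly. Erg changed least of the 6, by 0.54 ± 0.09 (SE) with PDGF-BB (adjusted p = 0.000303) and 0.42 ± 0.09 (SE) untreated (adjusted p = 0.00185), and Fli1 changed by 1.15 ± 0.11 (SE) and 1.11 ± 0.11 (SE), all by limma-trend. With PDGF-BB, Sox7 had 18.9, 20.6 and 19 CPM in labelled KO cells, against 2.67, 4.05 and 4.11 CPM in WT cells. Without it, Sox7 had 20.9, 22.7 and 24 CPM in labelled KO cells, against 4.22, 4.18 and 5.42 CPM in WT cells. Sox7 is a SOX factor of developing vessels, and its groups were far apart. Sox17 stood at 23.2, 21.7 and 18.4 CPM in labelled KO cells with PDGF-BB and at 3.04, 2.13 and 3.19 CPM in WT cells with PDGF-BB. Untreated, Sox17 stood at 29.8, 23.4 and 23.9 CPM in labelled KO cells and at 2.14, 4.74 and 3.75 CPM in WT cells. Sox17, a SOX factor of arterial endothelium, was likewise higher in every labelled KO library. For Sox18 the libraries with PDGF-BB gave 20, 18 and 18.6 CPM in labelled KO cells and 3.04, 3.06 and 2.21 CPM in WT cells. The untreated Sox18 libraries gave 23.4, 22 and 23 CPM in labelled KO cells and 3.4, 3.67 and 2.98 CPM in WT cells. Sox18, which directs lymphatic endothelial fate, followed the same pattern without overlap. Changes ran from 2.17 for Sox7 to 2.55 for Sox17 with PDGF-BB, and from 2.08 to 2.59 for the same genes untreated; 16.8% of the exonic bases of Sox17 lie under a gene model of the other strand. With PDGF-BB, Tal1 had 11.4, 11.4 and 11.9 CPM in labelled KO cells, against 0.85, 1.4 and 1.59 CPM in WT cells. Without it, Tal1 had 15.5, 13.4 and 13.3 CPM in labelled KO cells, against 0.882, 1.32 and 1.79 CPM in WT cells. Tal1, a factor of the blood and endothelial lineages, had 10.6 times the WT mean in labelled KO untreated cells, the highest ratio of the 36 genes there, and 9.03 times with PDGF-BB, from WT levels near the 1 CPM minimum.

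ETS factors bind DNA around a GGAA core and SOX factors around AACAAT, so the promoters of the set were searched for CAGGAAG and AACAAT on both strands. RefSeq promoter windows of GRCm38.p6, from 250 bases before to 50 after a start, were given for 22 of the 40 genes, with 29 starts. CAGGAAG was in 10 of the 29 windows (34.5%) and in 13.3% of the 32851 windows of all genes. AACAAT was in 6 of 29 (20.7%) and in 10.7% of all windows. Another ETS-type word, CCGGAAG, was in 0 of 29 and in 8.86% of all windows, and the GATA-type word AGATAA was in 5 of 29 (17.2%) and in 11.2%. The words do not overlap each other in the windows shown; several starts belong to the same gene, and a match is a description of letters and not of binding. The 4 windows below were chosen as examples: Emcn and Ushbp1 hold both words, Adgrf5 holds CAGGAAG and had among the largest differences between labelled KO and WT, and Flt1, the gene of the set most raised by PDGF-BB, holds neither. Where a gene had several starts, the window with the most matches of these words is shown. Capitals mark CAGGAAG, written CTTCCTG where it lies on the other strand, and AACAAT.
Emcn (GRCm38.p6, chr3:137340828-137341127, plus strand): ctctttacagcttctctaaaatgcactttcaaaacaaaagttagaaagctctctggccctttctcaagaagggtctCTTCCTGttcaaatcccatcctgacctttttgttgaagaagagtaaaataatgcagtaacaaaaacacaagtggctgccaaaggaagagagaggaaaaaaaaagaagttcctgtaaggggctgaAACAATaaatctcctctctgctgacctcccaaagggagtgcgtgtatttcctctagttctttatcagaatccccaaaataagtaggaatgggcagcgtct
Adgrf5 (GRCm38.p6, chr17:43360181-43360480, plus strand): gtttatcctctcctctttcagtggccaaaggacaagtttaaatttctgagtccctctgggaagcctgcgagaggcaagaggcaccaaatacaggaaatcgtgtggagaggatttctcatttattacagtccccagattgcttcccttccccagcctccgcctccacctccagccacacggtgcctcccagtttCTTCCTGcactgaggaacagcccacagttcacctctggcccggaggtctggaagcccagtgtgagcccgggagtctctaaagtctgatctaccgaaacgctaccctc
Ushbp1 (GRCm38.p6, chr8:71395752-71396051, minus strand): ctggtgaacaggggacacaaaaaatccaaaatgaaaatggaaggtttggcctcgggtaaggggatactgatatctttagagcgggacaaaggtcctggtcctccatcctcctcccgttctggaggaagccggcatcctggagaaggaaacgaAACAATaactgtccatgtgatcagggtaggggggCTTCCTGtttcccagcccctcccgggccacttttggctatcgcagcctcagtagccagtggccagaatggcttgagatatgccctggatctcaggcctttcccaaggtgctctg
Flt1 (GRCm38.p6, chr5:147725962-147726261, minus strand): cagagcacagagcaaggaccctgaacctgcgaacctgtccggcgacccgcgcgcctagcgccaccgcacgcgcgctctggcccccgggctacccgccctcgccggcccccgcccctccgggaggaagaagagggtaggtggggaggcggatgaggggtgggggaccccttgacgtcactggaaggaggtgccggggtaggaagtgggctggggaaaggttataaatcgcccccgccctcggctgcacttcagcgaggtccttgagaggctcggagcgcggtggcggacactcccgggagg
The match begins 174 bases before the start in Emcn, 57 before it in Adgrf5 and 64 before it in Ushbp1, and the AACAAT word 50 bases before it in Emcn and 98 in Ushbp1. The genes whose windows held CAGGAAG at any start were Adgrf5, Apln, Ctla2a, Egfl7, Emcn, Erg, Rasip1 and Ushbp1, which include Erg and Rasip1, with ratios of labelled KO to WT near or under 2-fold, and Adgrf5 and Emcn, with large ones.

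Surface proteins of the endothelium differed by unequal amounts. With PDGF-BB, Emcn had 65.9, 67.5 and 73.1 CPM in labelled KO cells, against 9.72, 9.24 and 6.87 CPM in WT cells. Without it, Emcn had 90.4, 75.1 and 79 CPM in labelled KO cells, against 10.8, 10.1 and 8.64 CPM in WT cells. Emcn is a sialomucin of capillary and venous endothelium, and it changed by 2.87 ± 0.12 (SE) with PDGF-BB and 2.93 ± 0.12 (SE) untreated without overlap of the libraries. Cd93 stood at 133, 127 and 130.4 CPM in labelled KO cells with PDGF-BB and at 12.9, 18.1 and 19.8 CPM in WT cells with PDGF-BB. Untreated, Cd93 stood at 206, 163 and 166 CPM in labelled KO cells and at 29.6, 27.6 and 28 CPM in WT cells. Cd93 is a C-type lectin receptor that binds Mmrn2 in the matrix, and its groups were far apart. With PDGF-BB, Clec14a had 46.5, 49.5 and 47.9 CPM in labelled KO cells, against 10.1, 7.58 and 9.5 CPM in WT cells. Without it, Clec14a had 58.4, 51.2 and 57.9 CPM in labelled KO cells, against 11.5, 11.1 and 11.6 CPM in WT cells. Clec14a, a relative of Cd93 that also binds Mmrn2, was higher in every labelled KO library than in any WT library. Cd93 changed by 2.89 ± 0.13 (SE) with PDGF-BB and 2.60 ± 0.13 (SE) untreated, and Clec14a by 2.29 ± 0.10 (SE) and 2.19 ± 0.10 (SE). Ecscr stood at 10.9, 10.9 and 12.4 CPM in labelled KO cells with PDGF-BB and at 1.94, 1.46 and 1.72 CPM in WT cells with PDGF-BB. Untreated, Ecscr stood at 11.1, 10.1 and 8.95 CPM in labelled KO cells and at 1.01, 1.53 and 1.79 CPM in WT cells. Ecscr is a membrane protein of endothelial chemotaxis, and its groups did not overlap. For Myct1 the libraries with PDGF-BB gave 29.2, 32.7 and 31.7 CPM in labelled KO cells and 4.49, 4.05 and 3.19 CPM in WT cells. The untreated Myct1 libraries gave 37.1, 34.4 and 32 CPM in labelled KO cells and 4.16, 4.18 and 3.63 CPM in WT cells. Myct1, a small membrane protein enriched in endothelium, separated as fully. Ecscr and Myct1 had changes of 2.20 and 2.72 with PDGF-BB and 2.19 and 2.83 untreated. With PDGF-BB, Plvap had 6.41, 7.25 and 7.12 CPM in labelled KO cells, against 1.88, 2.33 and 2.39 CPM in WT cells. Without it, Plvap had 6.74, 8.76 and 8.12 CPM in labelled KO cells, against 1.83, 2.44 and 2.32 CPM in WT cells. Plvap, which forms the diaphragms of fenestrae and caveolae, was higher without overlap, by 1.31 ± 0.13 (SE) with PDGF-BB and 1.47 ± 0.13 (SE) untreated.

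Eng and Lyve1 were the tested surface genes that were not called higher in labelled KO untreated cells. Eng stood at 165, 167 and 165 CPM in labelled KO cells with PDGF-BB and at 125, 147 and 156 CPM in WT cells with PDGF-BB. Untreated, Eng stood at 164, 173 and 171 CPM in labelled KO cells and at 152, 154 and 152 CPM in WT cells. Eng, a co-receptor for TGF-beta family ligands that mesenchymal cells also carry, was nearly level: its change was 0.15 ± 0.07 (SE) untreated (95% interval -0.0033 to 0.31, adjusted p = 0.122) and 0.22 ± 0.07 (SE) with PDGF-BB (adjusted p = 0.0284, limma-trend). The call with PDGF-BB was lost when any of the 3 labelled KO libraries with PDGF-BB was left out (adjusted p = 0.0703 to 0.0823), and Eng was called higher untreated with TMM scaling, at 0.29 (adjusted p = 0.0145), and without replicate 1 of WT with PDGF-BB (adjusted p = 0.00421). For Lyve1 the libraries with PDGF-BB gave 0.184, 0.875 and 0.812 CPM in labelled KO cells and 0.304, 0.465 and 0.245 CPM in WT cells. The untreated Lyve1 libraries gave 1.24, 1.07 and 1.17 CPM in labelled KO cells and 0.63, 0.407 and 0.715 CPM in WT cells. Labelled KO lay above WT without overlap untreated but not with PDGF-BB, with ratios of means of 1.99 and 1.85, at levels near or under 1 CPM. Lyve1, the hyaluronan receptor of lymphatic endothelium and some macrophages, did not pass the test, at 0.25 ± 0.17 (SE) with PDGF-BB (adjusted p = 0.262) and 0.45 ± 0.17 (SE) untreated (adjusted p = 0.0588, limma-trend). TMM scaling called it untreated (adjusted p = 0.046, limma-trend). Without replicate 1 of labelled KO with PDGF-BB it was called with PDGF-BB (adjusted p = 0.0359) and untreated (adjusted p = 0.0215). Without replicate 1 of WT with PDGF-BB it was called untreated (adjusted p = 0.0444). Gpihbp1, which anchors lipoprotein lipase on capillaries, had 3 reads over the labelled KO libraries and 1 over the WT libraries, and Aplnr, the apelin receptor, had 20 and 14, so both were close to the limit of detection.

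Among the secreted proteins, 5 of the 6 tested were higher in labelled KO under both treatments. With PDGF-BB, Vwf had 19.2, 24.1 and 22.5 CPM in labelled KO cells, against 2.49, 2.46 and 2.39 CPM in WT cells. Without it, Vwf had 32.5, 22.6 and 25.9 CPM in labelled KO cells, against 3.72, 3.31 and 3.28 CPM in WT cells. Vwf encodes von Willebrand factor, the platelet-binding glycoprotein stored by endothelial cells; its libraries did not overlap, and it changed by 2.73 ± 0.13 (SE) with PDGF-BB and 2.64 ± 0.13 (SE) untreated. Egfl7 stood at 41.9, 39.7 and 38.4 CPM in labelled KO cells with PDGF-BB and at 9.6, 5.58 and 8.09 CPM in WT cells with PDGF-BB. Untreated, Egfl7 stood at 40.6, 39.1 and 36.4 CPM in labelled KO cells and at 7.63, 7.54 and 4.94 CPM in WT cells. Egfl7 is secreted by endothelial cells into the vessel matrix, and every labelled KO library was higher. With PDGF-BB, Mmrn2 had 87.2, 86.5 and 89.3 CPM in labelled KO cells, against 11.4, 13.9 and 14.2 CPM in WT cells. Without it, Mmrn2 had 82.8, 97.3 and 105 CPM in labelled KO cells, against 17.5, 21.3 and 18.5 CPM in WT cells. Mmrn2, an endothelial matrix glycoprotein, behaved likewise. Egfl7 and Mmrn2 had changes of 2.25 and 2.65 with PDGF-BB and 2.38 and 2.26 untreated. For Ctla2a the libraries with PDGF-BB gave 38.4, 39.6 and 39.4 CPM in labelled KO cells and 7.23, 3.12 and 3.43 CPM in WT cells. The untreated Ctla2a libraries gave 37.5, 31.4 and 33.4 CPM in labelled KO cells and 4.41, 5.55 and 3.46 CPM in WT cells. Ctla2a, a cysteine protease inhibitor, changed by 2.92 with PDGF-BB and 2.69 untreated, but 25.5% of the 50-base words of its transcripts occur in other genes such as Ctla2b, so its counts are uncertain. Apln stood at 7.05, 7.88 and 6.06 CPM in labelled KO cells with PDGF-BB and at 3.1, 4.05 and 2.7 CPM in WT cells with PDGF-BB. Untreated, Apln stood at 10.9, 5.08 and 4.45 CPM in labelled KO cells and at 2.58, 1.78 and 2.09 CPM in WT cells. Apln, the peptide apelin made by sprouting endothelial tip cells, was higher without overlap, by 0.91 ± 0.24 (SE) with PDGF-BB (adjusted p = 0.0104) and 1.23 ± 0.24 (SE) untreated (adjusted p = 0.00148, limma-trend). Mmrn1, a platelet and endothelial glycoprotein, had 7 reads over the labelled KO libraries and 2 over the WT libraries.

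Esm1 went against the rest. With PDGF-BB, Esm1 had 9.45, 11.1 and 12.9 CPM in labelled KO cells, against 27, 17.9 and 16.8 CPM in WT cells. Without it, Esm1 had 7.92, 8.36 and 6.34 CPM in labelled KO cells, against 6.05, 6.06 and 9.12 CPM in WT cells. Esm1, or endocan, is a proteoglycan secreted by tip cells that also rises in other activated cells. With PDGF-BB every labelled KO library lay below every WT library, with a change of -0.81 ± 0.19 (SE) (adjusted p = 0.00496, limma-trend) and a ratio of means of 0.541. Without replicate 1 of WT with PDGF-BB the change was -0.61 and still called. In untreated cells the libraries overlapped, and the difference was 0.09 ± 0.19 (SE) (95% interval -0.31 to 0.50, adjusted p = 0.74).

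The remaining genes act inside the cell. With PDGF-BB, Nos3 had 7.33, 7.64 and 8.75 CPM in labelled KO cells, against 2.06, 2.06 and 1.47 CPM in WT cells. Without it, Nos3 had 7.07, 6.49 and 8.12 CPM in labelled KO cells, against 2.58, 1.83 and 1.31 CPM in WT cells. Nos3 is the endothelial nitric oxide synthase, and its labelled KO libraries lay wholly above its WT libraries. She stood at 4.89, 4.86 and 4.81 CPM in labelled KO cells with PDGF-BB and at 0.85, 0.997 and 0.92 CPM in WT cells with PDGF-BB. Untreated, She stood at 5.3, 4.75 and 5.12 CPM in labelled KO cells and at 1.32, 1.07 and 1.79 CPM in WT cells. She, an adaptor with an SH2 domain, did the same at a lower level. For Ushbp1 the libraries with PDGF-BB gave 5.62, 5.98 and 4.94 CPM in labelled KO cells and 0.729, 0.731 and 0.981 CPM in WT cells. The untreated Ushbp1 libraries gave 7.26, 8.23 and 7.62 CPM in labelled KO cells and 2.02, 2.29 and 1.67 CPM in WT cells. Ushbp1, a protein named for binding harmonin, again separated without overlap. The changes were 1.64, 1.61 and 1.84 with PDGF-BB and 1.52, 1.35 and 1.54 untreated. Of the exonic bases of Nos3, 32.3% lie under Atg9b and another gene of the other strand, so reads of those genes may be mixed unless strand was used in counting, which the sources used here do not state.

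Ranked by CPM per kilobase of the deposited exon length, the set had a different leader in each genotype. That length was 2977 bases for Pecam1 and 3422 for Eng, where GENCODE annotates 6228 and 4048 exonic bases. The order, and the leader in labelled KO cells, therefore depend on the length used. In labelled KO cells, over both treatments, Pecam1 stood first with 83.3 CPM per kilobase, followed by Eng with 49, Cdh5 with 43.1, Emcn with 29, Egfl7 with 28.3 and Erg with 28.1. In WT cells Eng led with 43.1 and Erg followed with 20.2, ahead of Pecam1 with 11.5, Esm1 with 6.59 and Cdh5 with 6.02. Esm1 stood ahead of Cdh5 in WT cells through the libraries with PDGF-BB, at 9.81 against 5.21 CPM per kilobase, whereas in untreated WT cells it lay below Cdh5, at 3.37 against 6.82. At the low end Kdr reached 1.15 CPM per kilobase in labelled KO and 0.31 in WT, and Flt4 1.04 and 0.50.

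PDGF-BB changed few of the genes in labelled KO cells. Flt1 and Esm1 rose, 2 of 36 where 17.6% of all genes rose, and Kdr, Cd93, Erg and Ushbp1 fell, 4 of 36 where 24.8% of all genes fell. Without replicate 1 of WT with PDGF-BB, 11 of 36 fell, where 32.7% of all genes then fell. In WT cells the same 2 genes, Flt1 and Esm1, rose, where 25% of all genes rose, and 13 of 36 fell, close to the 34.4% of all genes that fell: Kdr, Cd93, Erg, Ushbp1, Pecam1, Cdh5, Tek, Vwf, Adgrf5, Clec14a, Rasip1, She and Mmrn2. Without replicate 1 of WT with PDGF-BB 15 of 36 fell, where 37.4% of all genes did. The median change over the 36 was -0.16 in labelled KO cells, where the median of all genes was -0.07, and -0.20 in WT cells, where it was -0.08. The PDGF-BB libraries lay wholly above the untreated ones for 3 of 36 genes and wholly below for 16 in labelled KO cells, against 27.3% and 35.9% of all genes. In WT cells they lay above for 3 and below for 16, against 25.9% and 36.4%.

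Flt1 had the largest response. The values above put labelled KO cells at a mean of 73.6 ± 1.65 CPM with PDGF-BB against 23.5 ± 3.46 CPM untreated, and WT cells at 28 ± 3.31 CPM against 7.98 ± 1.13 CPM (SD, n = 3 each). The change was 1.61 ± 0.12 (SE) in labelled KO cells (adjusted p = 4.76e-07) and 1.69 ± 0.12 (SE) in WT cells (adjusted p = 1.18e-07) by limma-trend, a ratio of means of 3.13 and 3.51. Kdr, the other receptor of VEGF-A, fell by 0.82 in labelled KO cells (adjusted p = 0.003) and by 0.76 in WT cells (adjusted p = 0.0034, limma-trend). The WT call for Kdr was lost with quantile normalization (adjusted p = 0.0594, limma-trend). In each genotype the Flt1 libraries with PDGF-BB were thus all higher and the Kdr libraries all lower than the untreated ones.

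Esm1 rose by 1.41 ± 0.19 (SE) in WT cells (adjusted p = 3.09e-05) and by 0.51 ± 0.19 (SE) in labelled KO cells (adjusted p = 0.0452), by limma-trend. The call in labelled KO cells was lost in 9 of 22 alternatives, with adjusted p up to 0.165, among them the omission of each labelled KO library except replicate 1 with PDGF-BB, and of replicate 1 or 2 of WT untreated. Erg fell by 0.48 in labelled KO cells (adjusted p = 0.000509) and by 0.60 in WT cells (adjusted p = 4.66e-05), and these calls held in every alternative. Cd93 fell by 0.44 in labelled KO cells and 0.73 in WT cells, and Ushbp1 by 0.42 and 0.72, with adjusted p between 0.00023 and 0.0141 by limma-trend. In labelled KO cells the Cd93 call was lost without replicate 1 of labelled KO untreated (adjusted p = 0.0739), and the Ushbp1 call without replicate 3 of labelled KO with PDGF-BB (adjusted p = 0.0658) or replicate 2 of labelled KO untreated (adjusted p = 0.0515). The Ushbp1 call there was also lost with no filter (adjusted p = 0.0746) and with quantile normalization (adjusted p = 0.0999).

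The 9 genes that fell in WT cells alone by the threshold changed by -0.28 for Pecam1 to -0.56 for Rasip1 there, and by -0.36 for Tek to -0.05 for She in labelled KO cells, where none of them passed the test. Pecam1, for example, fell by 0.28 in WT cells (adjusted p = 0.00246), and its difference in labelled KO cells was -0.09 ± 0.07 (SE) (adjusted p = 0.286, limma-trend). Without a single library the WT call was lost for Cdh5 (replicate 3 of WT untreated, adjusted p = 0.0678), Clec14a (replicate 2 of WT with PDGF-BB, adjusted p = 0.0686) and Rasip1 (replicate 3 of WT untreated, adjusted p = 0.0585). It was also lost for Tek when replicate 2 or 3 of either WT group was left out (adjusted p = 0.0598 to 0.123) and for Vwf when replicate 2 or 3 of WT with PDGF-BB or replicate 1 of WT untreated was (adjusted p = 0.051 to 0.0893). She kept its call in only 4 of 21 alternatives. With all libraries, edgeR also lost the WT call for Cdh5, Clec14a, Tek and Vwf, and DESeq2 for Clec14a, Tek and Vwf. Quantile normalization lost it for Adgrf5, Clec14a, Rasip1, Tek and Vwf. TMM scaling lost it for Tek and Vwf, and no filter for Rasip1, Tek and Vwf. Fitting the WT groups alone lost it for Cdh5 and Clec14a. By edgeR 2 of 36 rose and 8 fell in WT cells, where 30.4% of all genes rose and 28.9% fell. Quantile normalization turned the WT count to 6 higher and 6 lower, where 28.3% and 28.6% of all genes were, and its median change to 0.003 over the 36 genes.

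Whether the response to PDGF-BB differed between labelled KO and WT was tested by the interaction, the response in labelled KO minus that in WT. By limma-trend 0 of 36 genes passed, where 2.25% of all genes were positive and 1.68% negative. Mmrn2 and Esm1 had an unadjusted p under 0.05, edgeR called 0, where 1.61% of all genes were positive and 1.89% negative, and DESeq2 called 1, Esm1, as negative, where 2.9% and 3.51% were. Esm1 differed by -0.90 ± 0.27 (SE) (95% interval -1.48 to -0.33, adjusted p = 0.0812, with 0.0245 to 0.191 over 21 alternatives), and it was called without replicate 1 (-0.70, adjusted p = 0.0416) or replicate 3 (-1.03, adjusted p = 0.0383) of WT with PDGF-BB. Mmrn2 differed by 0.40 ± 0.15 (SE) (95% interval 0.07 to 0.72, adjusted p = 0.164). For Flt1 the difference was -0.08 ± 0.17 (SE), with a 95% interval of -0.45 to 0.29. Of the 36 genes, 31 had the same sign of response in both genotypes.

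**Figure D4:**
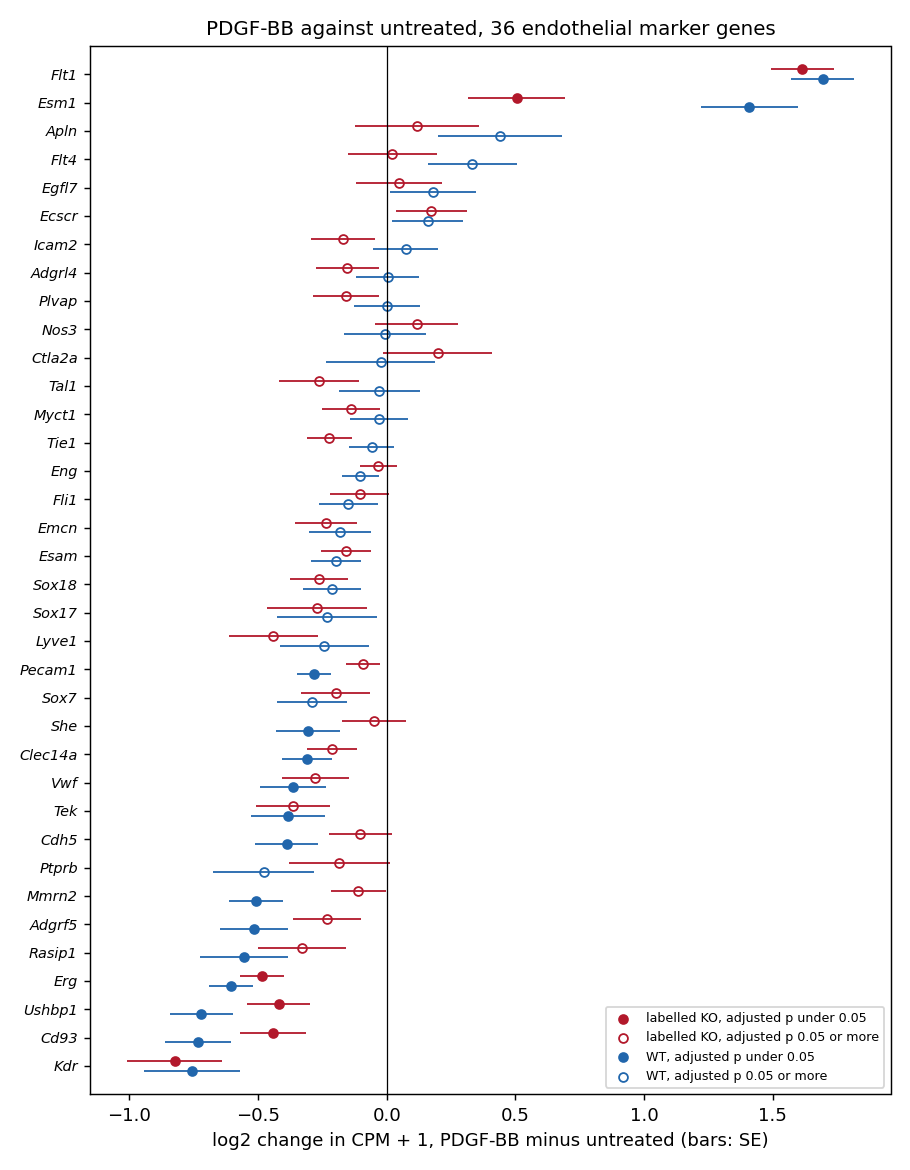
Response to PDGF-BB, as log2(CPM + 1), for each of the 36 tested genes in rows, with 1 point and its standard error for labelled KO cells and 1 for WT cells, filled where the adjusted p is under 0.05. Flt1 lies farthest to the right in both genotypes, Esm1 lies to the right with a smaller response in labelled KO cells, and most other genes lie near or below 0.

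Further endothelial genes outside the 40 moved the same way less uniformly. Of 29 tested, 20 were higher and 6 lower in labelled KO untreated cells, where 9.15% of all genes were higher and 24.8% lower. The counts with PDGF-BB were 22 higher and 5 lower, where 10.6% and 26.6% of all genes were. The median changes were 1.20 untreated and 0.95 with PDGF-BB. With PDGF-BB the largest changes were in Gja4, a gap junction protein of arterial endothelium, at 2.65, Selp, or P-selectin, at 2.59, Bmx, a tyrosine kinase, at 2.48, and Stab1, a scavenger receptor, at 2.38. In untreated cells they were in Bmx at 2.78, Selp at 2.59, Podxl, a sialomucin of the luminal surface, at 2.20 and Gja4 at 2.13. The genes lower in labelled KO had smaller changes than those named for the same comparison, so none of them is among the examples. The summed level of this list differed less than the medians of its genes. It was 2170.5 to 2185 CPM in labelled KO cells with PDGF-BB against 2116 to 2175 CPM in WT cells with PDGF-BB. Those ranges overlapped. In untreated cells it was 1979.6 to 2047 CPM in labelled KO against 1792 to 1884 CPM in WT, without overlap. A sum follows the most abundant genes of a list, here as for the 40 genes. Which genes set the sum of this list was not tested. PDGF-BB raised 4 of 29 and lowered 3 in labelled KO cells, where 17.6% of all genes rose and 24.8% fell, and raised 7 and lowered 7 in WT cells, where 25% rose and 34.4% fell, so none of these shares exceeded that of all genes. Slco2a1, a prostaglandin transporter, rose most, by 1.85 in labelled KO cells and 1.43 in WT cells.

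Partner transcription factors of endothelial specification were mixed, with 9 of 16 higher and 4 lower in labelled KO with PDGF-BB, and 9 higher and 4 lower untreated. Of all genes, 10.6% were higher and 26.6% lower with PDGF-BB, and 9.15% and 24.8% untreated, so the lower ones lay near that share. Hhex, a homeobox factor of early endothelium, changed by 2.35 with PDGF-BB and 2.32 untreated, Lmo2, a bridging cofactor of Tal1, by 2.09 and 2.09, and Lyl1, a relative of Tal1, by 1.67 and 1.56. Klf4 fell by 1.19 with PDGF-BB and 1.32 untreated. Etv2, the embryonic inducer of endothelium, was at 0 in all libraries. Of 10 ligands and co-receptors of the VEGF and Tie receptors, 4 were higher and 5 lower in labelled KO with PDGF-BB. Untreated, 4 were higher and 4 lower, beside the same shares of all genes. The VEGF-C co-receptor Nrp2 changed by -1.15 and -1.86, the Flt4 ligand Vegfd by -1.18 and -1.30, the matrix protein Svep1 by -0.81 and -1.34, and the Tek ligand Angpt2 by 0.84 and 1.01. PDGF-BB lowered 6 of these 10 in each genotype, where 24.8% of all genes fell in labelled KO cells and 34.4% in WT cells. Nrp1, a co-receptor of VEGF-A, rose by 0.94 in labelled KO cells and 1.23 in WT cells.

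Markers of other cell types also differed between labelled KO and WT, and their part in the difference of the endothelial genes was not tested. Of all genes tested, 10.6% were higher and 26.6% lower in labelled KO with PDGF-BB, and 9.15% and 24.8% untreated. Of 16 macrophage and blood cell genes tested, 14 were lower and 0 higher in labelled KO with PDGF-BB and 15 were lower and 0 higher untreated, with Adgre1 at -1.96 and -2.39 and Lyz2 at -2.40 and -2.08. Their summed level over 23 genes was 45.2 to 49.2 CPM in labelled KO cells with PDGF-BB and 50.2 to 61.8 CPM in labelled KO untreated cells, against 137 to 206 CPM in WT cells with PDGF-BB and 186 to 201 CPM in WT untreated cells. Macrophage genes were thus lower in the same libraries in which endothelial genes were higher. Of 15 smooth muscle genes, 13 were higher in labelled KO with PDGF-BB and 7 untreated, and 0 were lower in either. Their summed level was 5729 to 5883 CPM in labelled KO with PDGF-BB and 4908 to 6697 CPM in labelled KO untreated, against 3313 to 3858 CPM in WT with PDGF-BB and 4830.4 to 5522 CPM in WT untreated, so the untreated groups overlapped.

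**Figure D5:**
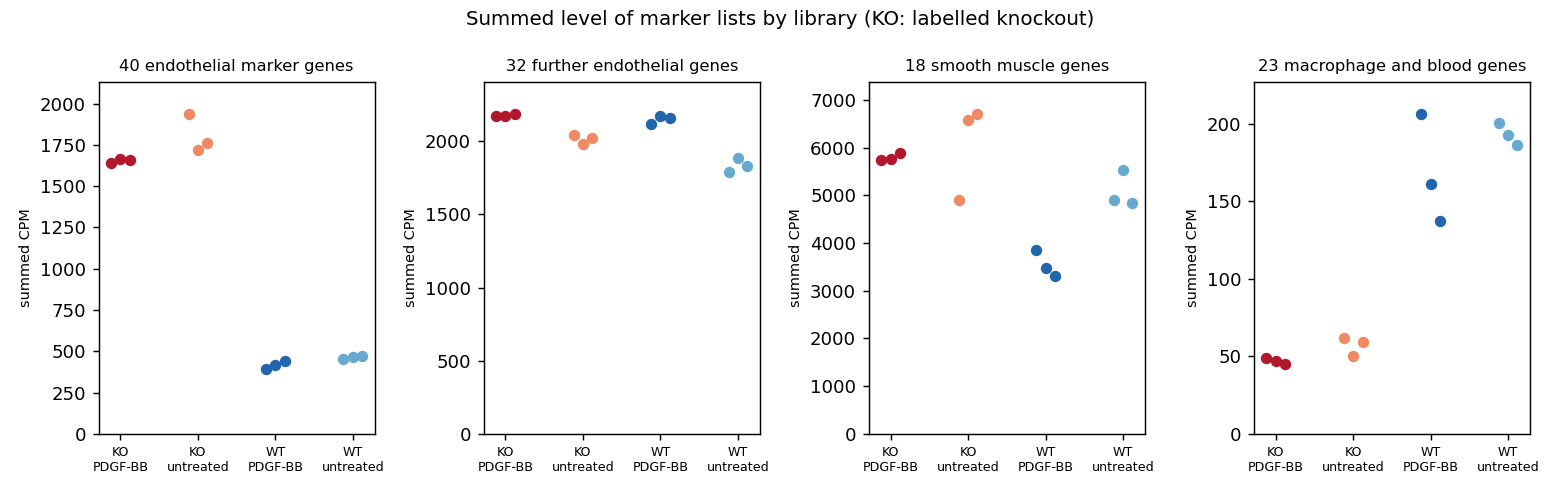
Summed CPM per library of the 40 endothelial genes, 32 further endothelial genes and marker lists of other cell types. Each list has its own axis starting at 0, with 1 point per library. The 40 endothelial genes are higher and macrophage genes lower in all 6 labelled KO libraries. The further endothelial genes overlap between labelled KO and WT with PDGF-BB, and smooth muscle genes overlap in untreated cells.

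The fibroblast and pericyte lists held genes in both directions, and the Schwann cell genes that passed were lower. Among all genes, 10.6% were higher and 26.6% lower in labelled KO with PDGF-BB, and 9.15% and 24.8% untreated. The counts of lower fibroblast genes lay near those shares. Of 9 fibroblast genes, 3 were higher and 3 lower in labelled KO with PDGF-BB and 3 higher and 2 lower untreated; Scara5 changed by -3.53 and -3.26, and Col1a1 by 1.35 and 1.45. Their summed level was 12545 to 12975 CPM in labelled KO with PDGF-BB and 10662 to 10902 CPM in labelled KO untreated, against 5397 to 6020.4 CPM in WT with PDGF-BB and 4644 to 4772 CPM in WT untreated. Of 6 pericyte genes, 3 were higher and 2 lower with PDGF-BB and 2 higher and 0 lower untreated. Rgs5 changed by 1.17 and 1.52 and Anpep by 0.83 and 0.46. The 2 lower with PDGF-BB were Ndufa4l2, at -1.03, and Abcc9, at -0.78. Of 4 Schwann cell genes tested, 2 were lower and 0 higher with PDGF-BB and 4 lower and 0 higher untreated, with S100b at -1.80 and -1.58, and Sox10 and Foxd3 at 0 in all libraries. Their summed level was 13.9 to 15.1 CPM in labelled KO with PDGF-BB and 17.7 to 20.3 CPM in labelled KO untreated, against 37.6 to 59.1 CPM in WT with PDGF-BB and 49.8 to 57.1 CPM in WT untreated, without overlap. Of the lymphatic markers, Ccl21a was at 0 in all libraries, Prox1 averaged at most 0.569 CPM in any group, and of the 2 tested Maf changed by -1.59 and -1.88, and Pdpn by 0.50 with PDGF-BB. Y-linked genes were expressed in all groups and Xist averaged at most 0.312 CPM. Of 4 sex-linked genes tested, 1 was lower and 0 higher in labelled KO under each treatment, near the share of all genes that were lower.

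The genes lie on many chromosomes of GRCm38 (mm10). Vwf, on chromosome 6 from 125546774 to 125686679, lies 1.4 Mb from Tigar, and Mmrn1 is on the same chromosome at 66.1 Mb. The closest members are Plvap and Ushbp1 on chromosome 8, 102 kb apart, and Icam2 and Pecam1 on chromosome 11, 266 kb apart. Pecam1 runs from 106654217 to 106750628 on chromosome 11, Cdh5 from 104101625 to 104144511 on chromosome 8, Ptprb from 116275523 to 116389535 on chromosome 10, and Esm1 from 113209659 to 113218098 on chromosome 13. The change in Vwf, the member nearest to Tigar, lay between those in Tek and Ptprb under both treatments.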

How the data were processed

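Poly(A) RNA from 12 libraries was sequenced after a stranded library kit, per the labels' protocols. The submitters' processing notes name HISAT2, HTSeq and the mm10 build; versions and the strand setting are not given in the sources used here. The deposited values are CPM, made by the authors, although the table is named for FPKM: 100% of them were whole reads within 0.001 read, so reads could be recovered, and edgeR on those reads called 3936 of 14202 genes between labelled KO and WT untreated cells. Genes were kept at 1 CPM or more in at least 3 of the 12 libraries. The test was limma-trend (limma 3.58.1, R 4.3.3) on log2(CPM + 1), with 1 mean for each of the 4 groups, 2-sided, called at a Benjamini-Hochberg adjusted p under 0.05 among the 14202 genes. Differences on this scale understate the change of genes with few reads. Errors are SE from the fit beside log2 changes and SD beside CPM.

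The 40 endothelial genes, the other gene lists, the tests and the alternatives were chosen with earlier results of these data known. Every gene that passed the filter is given in every library; from each other list, up to 4 called genes with the largest change per contrast serve as examples, together with markers used to check the cell type. Alternatives changed the pseudocount (0.1 and 0.5), the filter (none, or a mean of at least 5 CPM), the scaling (TMM, quantile), the groups fitted and the test (on recovered reads, DESeq2 1.42.0 or edgeR 4.0.16), added a replicate block, and left out each library in turn. Gene positions and overlaps came from GENCODE vM21 (GRCm38), promoter windows from RefSeq (GRCm38.p6). The procedure was tested on simulated data. Plots used Python 3.11.15 with matplotlib 3.10.9.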

Additional observations from a re-analysis of the deposited data

How the results depend on the processing

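Over 180 results of single genes and 22 alternatives, 3732 of 3858 values kept their direction and side of the threshold, 68 lost a call, 58 gained one and 0 reversed. All 32 genes higher in labelled KO untreated cells kept their call in each alternative that tested them, and 33 of 35 calls with PDGF-BB did; leaving out a library gave 32 to 34 genes higher in labelled KO in either comparison. The counts for PDGF-BB moved more. In labelled KO cells 1 gene in place of 2 rose with no filter, 13 in place of 4 fell when the labelled KO groups were fitted alone, and leaving out a library gave 1 to 2 rising and 3 to 11 falling. In WT cells 8 in place of 13 fell by edgeR, quantile normalization gave 6 rising and 6 falling, and leaving out a library gave 2 to 3 rising and 9 to 15 falling. The share of all genes moved as well. Without replicate 1 of WT with PDGF-BB, 32.7% of all genes fell in labelled KO cells and 37.4% in WT cells. With all libraries 24.8% and 34.4% fell, and by edgeR 28.9% fell in WT cells. Such a share is not given for every alternative, so these moves are not read as particular to the set. For the interaction DESeq2 called 1 gene negative, and leaving out a library gave 0 to 1. The summed level in labelled KO cells with PDGF-BB was 1759 CPM with TMM, 1701 with quantile normalization and 1489 without Eng, and in labelled KO untreated cells 1637 without Eng. It was 276 CPM without Eng in WT cells with PDGF-BB, and 431 with TMM, 436 with quantile normalization and 309 without Eng in WT untreated cells. Leaving out a library gave 1650 to 1662 CPM and 1742 to 1849 CPM in labelled KO cells with PDGF-BB and untreated, against 407 to 431 CPM and 458 to 466 CPM in WT cells with PDGF-BB and untreated. The cause of these shifts was not tested. Deviations of libraries with the same number correlated at -0.231 to 0.175 over 18 pairs, 3 of them over 0.1, so the numbers were not taken as pairs; with the replicate block 1 gene rose and 4 fell with PDGF-BB in labelled KO cells and 12 fell in WT cells. Genes near 1 CPM rest on some 15 to 22 reads a library, and Cldn5, Mmrn1, Aplnr and Gpihbp1 on fewer.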
